A study of Mus musculus with 18 samples.

Results

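Cholesterol and fatty acid synthesis genes were followed in mouse dorsal root ganglia, which hold the cell bodies of the sensory neurons that serve limbs and trunk. The 33 genes were taken from the deposited count table by symbol, and all 33 listed genes were found among its 15730 genes. They comprise 8 genes of the path from acetyl-CoA to squalene, 10 of the path from squalene to cholesterol, 6 regulators and carriers of sterols, and 9 genes of fatty acid and lipid synthesis.

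RNA of pooled L4 to L6 ganglia, whose axons run in the sciatic nerve, was sequenced 24 hours after surgery in C57BL/6 mice of 6 to 8 weeks. Each sample was a pool from 2 mice, and 18 samples formed 6 groups of 3. SNA_Saline had the sciatic nerve injured with saline applied, and Sham_Saline had sham surgery with saline. SNA_NAC had the nerve injured with 30 mM N-acetyl-cysteine (NAC), a thiol antioxidant. Sham_H202, spelled with a zero in the labels, had sham surgery with 13 mM hydrogen peroxide. DCA had the dorsal columns injured, a spinal tract made of the centrally directed axons of these neurons, and LAM had only the laminectomy that exposes the cord. No mutation or transgene is named in the labels of any group. Whole ganglia were used, so fewer cells of a type and less RNA per cell cannot be told apart.

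Cells build cholesterol from acetyl-CoA through mevalonate, isoprenoids and squalene, and the final steps trim and reduce the ring system of lanosterol. The transcription factors SREBF1 and SREBF2 (SREBP-1 and SREBP-2) drive these genes: their precursors are held in the endoplasmic reticulum by SCAP and INSIG proteins when sterols are plentiful and are released to the Golgi when sterols are scarce. Within ganglia, myelinating Schwann cells are known for high lipid synthesis, and growing axons need membrane lipid.

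The promoters of 4 genes are shown because the first 3 had the highest fold changes of the 33 after sciatic injury and the fourth, Hmgcs1, was the only one with a match to the core of a sterol regulatory element. The windows run from 250 bases before to 50 after the start of the RefSeq transcript (build GRCm38.p6), 5′ to 3′ in the direction of transcription. Capitals mark the NF-Y box CCAAT in either strand (ATTGG on the other) and, in Hmgcs1, the sterol element core TCACNCCAC. The windows are chr1:169969156-169969455 (minus strand) for Hsd17b7, chr5:28071162-28071461 (plus) for Insig1, chr13:8885356-8885655 (plus) for Idi1 and chr13:119690101-119690400 (plus) for Hmgcs1.
Hsd17b7: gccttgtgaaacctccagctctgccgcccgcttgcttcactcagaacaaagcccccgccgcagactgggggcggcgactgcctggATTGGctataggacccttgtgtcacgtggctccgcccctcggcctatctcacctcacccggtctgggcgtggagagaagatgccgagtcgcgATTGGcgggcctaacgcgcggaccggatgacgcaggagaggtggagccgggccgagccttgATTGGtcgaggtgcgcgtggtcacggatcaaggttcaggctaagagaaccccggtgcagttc
Insig1: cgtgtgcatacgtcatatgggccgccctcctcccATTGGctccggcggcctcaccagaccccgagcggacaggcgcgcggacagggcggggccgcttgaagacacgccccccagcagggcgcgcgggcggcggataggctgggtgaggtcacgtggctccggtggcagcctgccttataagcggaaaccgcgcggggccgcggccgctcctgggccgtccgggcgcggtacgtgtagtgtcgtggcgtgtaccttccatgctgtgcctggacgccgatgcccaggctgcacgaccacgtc
Idi1: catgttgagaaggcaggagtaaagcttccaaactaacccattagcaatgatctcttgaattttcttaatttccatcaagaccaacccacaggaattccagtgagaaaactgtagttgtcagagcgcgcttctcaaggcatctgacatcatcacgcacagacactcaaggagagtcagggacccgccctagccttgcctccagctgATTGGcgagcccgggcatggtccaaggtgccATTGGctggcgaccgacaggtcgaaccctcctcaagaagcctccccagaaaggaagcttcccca
Hmgcs1: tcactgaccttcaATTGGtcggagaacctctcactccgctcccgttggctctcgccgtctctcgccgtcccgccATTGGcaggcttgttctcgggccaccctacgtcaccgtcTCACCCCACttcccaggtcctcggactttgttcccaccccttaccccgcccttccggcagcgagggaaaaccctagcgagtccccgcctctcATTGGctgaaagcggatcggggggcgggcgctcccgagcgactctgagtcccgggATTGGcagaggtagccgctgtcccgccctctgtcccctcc

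In the table of promoters, 26 of the 33 genes had 34 windows, and Fdps, Fdft1, Sqle, Stard4, Fads1, Scd1 and Scd2 had none. CCAAT on either strand was found in 21 of the 34 windows (61.8%), against 37.4% of all 32851 windows. The Sp1 box GGGCGG, on either strand, was found in 25 windows (73.5%), against 35.7% of all. The sterol element core was found in 1 window (2.94%), against 1.24% of all. Each motif was counted on its own, whether or not its match overlapped another, and a match describes the letters of the window only.

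The level of each gene per length is given by FPKM, reads scaled to a length assigned to the gene and to library total, as deposited by the authors. Over the 18 samples the mean ranged from 358 FPKM for Scd2, a stearoyl-CoA desaturase that makes monounsaturated fatty acids, to 3.86 FPKM for Lss, which folds oxidised squalene into lanosterol. For Lss, the FPKM set against the counts match a length near the 10787 bases of all its exons. Its longest transcript has 6992 bases, so its place as the lowest depends on the length used. After Scd2 came Hmgcs1 (HMG-CoA synthase) at 330 FPKM, Fdps (farnesyl diphosphate synthase) at 247 FPKM, Scd1 at 239 FPKM and Fdft1 (squalene synthase) at 152 FPKM. Scd2 ranged from 314 to 398 FPKM over the samples and Hmgcs1 from 266 to 382, so that these neighbours overlapped, as did Fdps (187 to 326) and Scd1 (181 to 295). In LAM replicate 1, Fdps had 2308 counts and 187 FPKM, and Msmo1 had 3889 counts and 63.5 FPKM. Their longest transcripts have 2953 and 2969 bases, so the order of genes by FPKM also depends on the length assigned. The transcription factor Srebf1 averaged 3.87 FPKM and its escort Scap 6.75 FPKM, and Srebf2 averaged 17.3 FPKM.

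**Figure D1:**
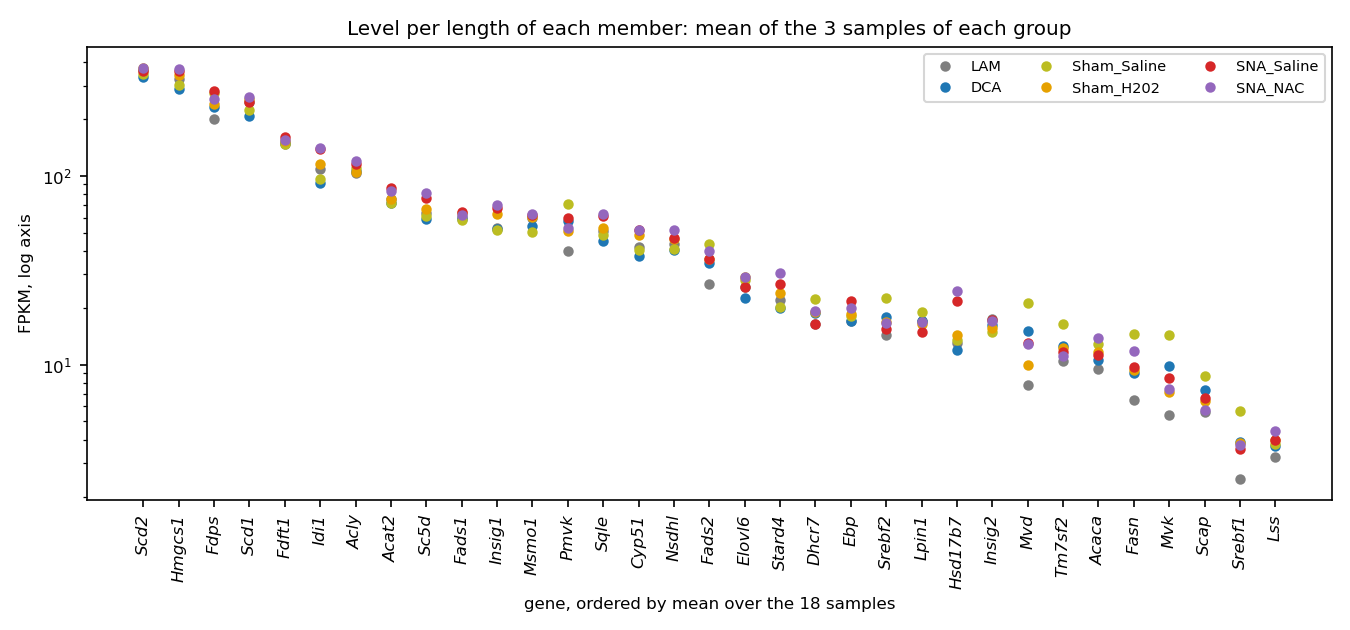
Level per length (FPKM as deposited, log axis) of each of the 33 genes, ordered by the mean over the 18 samples. Each point is the mean of the 3 samples of 1 group. The genes span from 358 FPKM (Scd2) to 3.86 FPKM (Lss). For Hsd17b7, and also for Sqle, Insig1, Idi1 and others, the means of the 2 groups with sciatic injury lie above the other 4.

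The libraries differed in depth, with deposited counts that summed to between 6472476 (Sham_H202 replicate 3) and 42435331 (SNA_NAC replicate 1). Among the 33 genes the lowest count in any sample was 58. The ganglion label was met by the markers: 7 of 7 sensory neuron genes were in the table and summed to between 5752 and 10364 CPM, and 9 of 9 Schwann cell genes summed to between 7093 and 11288 CPM. CPM here is the count scaled to a common library total after TMM normalization. Sham_Saline replicate 2 stood apart with the highest summed level of 5 skeletal muscle genes, 1085 CPM against 5.43 to 399 CPM in the other libraries, and with the steepest rise of expression with the GC share of the transcript, 0.693 on the log2 scale for 10 percentage points.

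**Figure D2:**
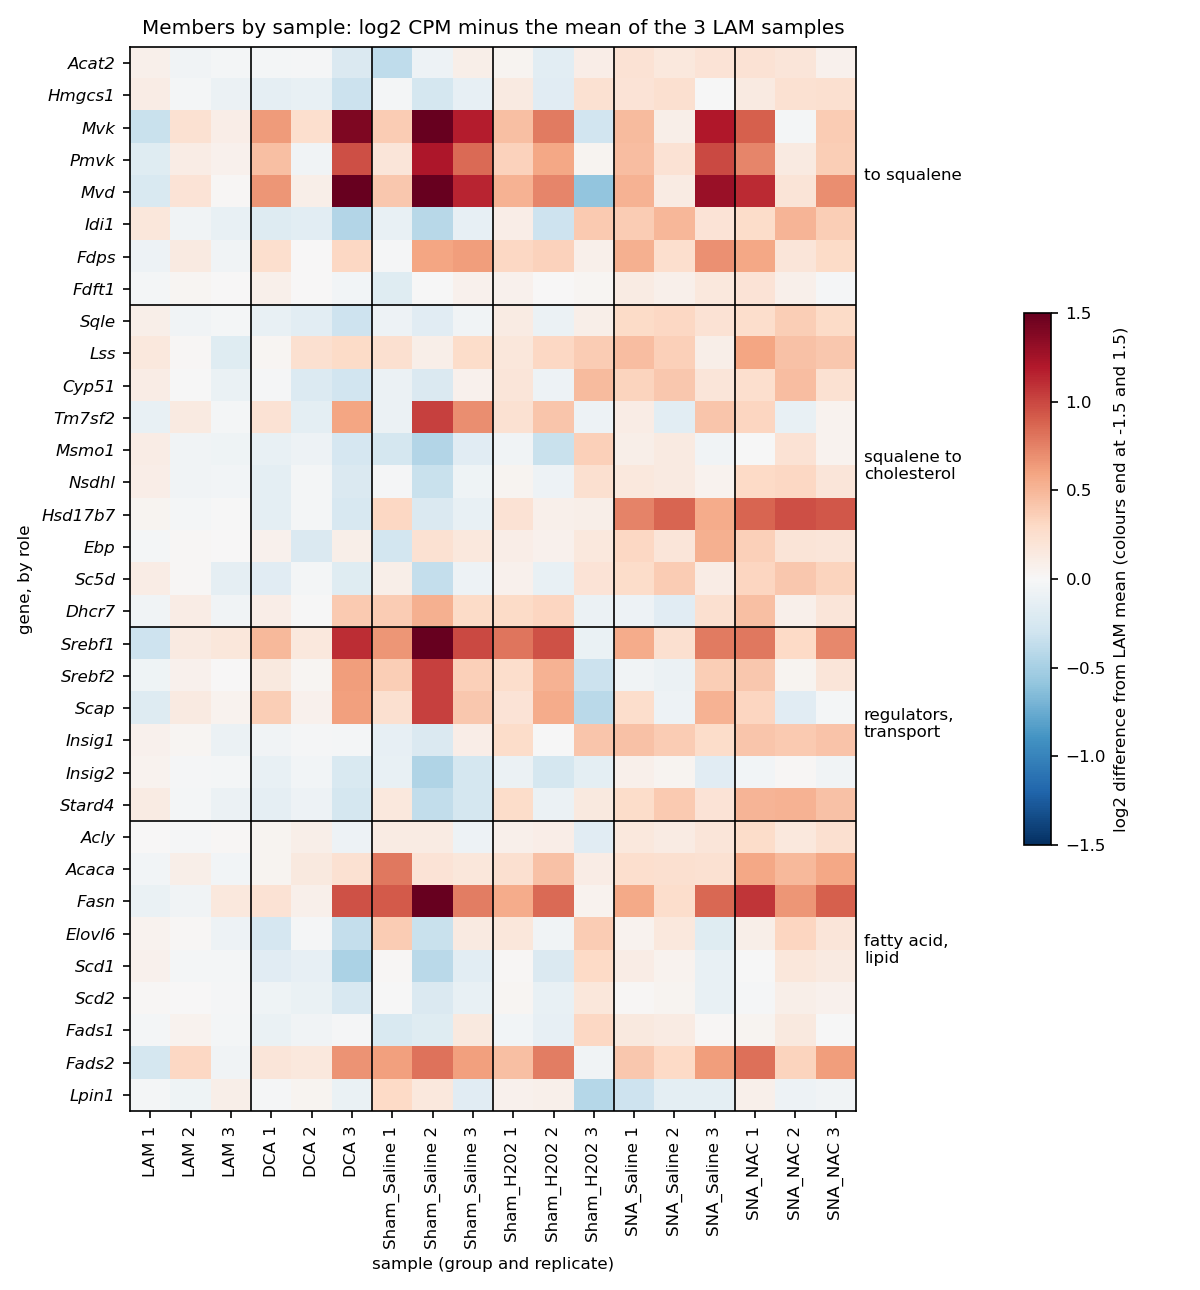
Colour map of log2 CPM of each gene in each sample minus the mean of the 3 LAM samples, with genes in rows by role and samples in columns by group. Hsd17b7 is darkest in the 6 samples with sciatic injury, whereas Mvk, Mvd, Srebf1 and Fasn are darkest in Sham_Saline replicate 2 and differ between replicates outside LAM.

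The first comparison asked how these genes respond to injury of the sciatic nerve, by setting SNA_Saline against Sham_Saline. Of the 33 genes, 3 rose and 0 fell at an adjusted p under 0.05 (edgeR's quasi-likelihood test, Benjamini-Hochberg adjustment over all 15730 genes), where 2.73% of all genes were called, 2.16% of them higher and 0.572% lower as shares of all genes. The 3 that rose were Hsd17b7, Sqle and Insig1. Counting instead the genes whose 3 injured samples all lay above or all below the 3 sham samples, 12 were higher and 1 was lower, beside 10.3% and 8.8% of all genes. The median log2 fold change of the 33 was 0.11, against -0.031 over all genes, and 20 of the 33 were positive. An unadjusted p under 0.05 was found for 18 of the 33, beside 22.5% of all genes.

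Among the 10 genes from squalene to cholesterol, the median log2 fold change was 0.32. Hsd17b7, which reduces a ketone on the sterol ring, lies at chr1:169949535-169969241 (GRCm38, minus strand). It had 114, 124 and 99.9 CPM in SNA_Saline and 84.4, 58.4 and 62.6 CPM in Sham_Saline (means 113 ± 12.2 and 68.5 ± 13.9, SD, n = 3). Every injured sample lay above every sham sample, and the log2 fold change was 0.72 (SE 0.12, adjusted p = 0.003 by edgeR), a 1.64-fold higher level. Sqle, squalene epoxidase, which adds the first oxygen on the way to sterols, lies at chr15:59315077-59331192 (plus strand). Sqle had 352, 358 and 334 CPM in SNA_Saline and 273, 255 and 278 CPM in Sham_Saline (means 348 ± 12.3 and 269 ± 11.8, SD, n = 3). The 3 injured samples were again all higher, with a log2 fold change of 0.37 (SE 0.09, adjusted p = 0.0264 by edgeR). It was among the steadiest of the 33 genes, with a pooled SD between replicates of 0.080 on the log2 CPM scale.

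A further 4 genes between squalene and cholesterol had no overlap between the groups, all higher after injury, without passing the test. These were Cyp51 (lanosterol demethylase, log2 fold change 0.39, adjusted p = 0.125 by edgeR), Sc5d (sterol desaturase, 0.36, 0.117), Msmo1 (sterol methyl oxidase, 0.34, 0.178) and Nsdhl (sterol dehydrogenase, 0.24, 0.191). Ebp, which shifts a double bond in the ring, had 0.30 (adjusted p = 0.197) and Lss 0.11. The other 2 genes had negative values. Dhcr7, which performs a last reduction before cholesterol and was the gene lower without overlap, had 60.2 to 74.8 CPM in SNA_Saline and 76.9 to 91.4 CPM in Sham_Saline, a log2 fold change of -0.39 (adjusted p = 0.157). Tm7sf2, a sterol reductase that shares 12.1% of its exonic bases with Vps51 on the same strand, had -0.47 (adjusted p = 0.25).

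Of the 8 genes leading to squalene, 0 passed the test, and their median log2 fold change was 0.11. Idi1, which isomerises isopentenyl diphosphate, came nearest: its levels were 504, 545 and 447 CPM in SNA_Saline and 358, 290 and 354 CPM in Sham_Saline. The groups did not overlap, with a log2 fold change of 0.58 (SE 0.15, adjusted p = 0.0519 by edgeR). Acat2, the thiolase of the first step, had 217 to 227 CPM after injury and 149 to 207 CPM in sham (log2 fold change 0.30, adjusted p = 0.148), and its counts are uncertain because a close copy, Acat3, is also in the table. Hmgcs1 (0.28) and Fdft1 (0.16) were also higher without overlap and without passing the test, and 18.3% of the exonic bases of Fdft1 lie opposite Ctsb. Fdps, which shares 26.7% of its exonic bases with Gm43738 on the same strand, had 0.07. The kinases Mvk and Pmvk and the decarboxylase Mvd, which turn mevalonate into isopentenyl diphosphate, had negative values of -0.73, -0.21 and -0.68, each with overlapping groups.

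Among the 6 regulators and carriers, Insig1 was called. Insig1, the endoplasmic reticulum protein that retains SCAP and is itself a target of SREBP, lies at chr5:28071363-28078662 (plus strand). Its levels were 197, 188 and 175 CPM in SNA_Saline and 133, 125 and 156 CPM in Sham_Saline (means 187 ± 10.8 and 138 ± 16.2, SD, n = 3). All 3 injured samples were higher, with a log2 fold change of 0.44 (SE 0.11, adjusted p = 0.0346 by edgeR). Stard4, a cytosolic carrier of cholesterol, had 151, 163 and 143 CPM against 139, 96.2 and 104 CPM (0.43, SE 0.13, adjusted p = 0.0866), and Insig2 had 0.25 (adjusted p = 0.178). The genes of the pathway's transcription factors and their escort were on the negative side: Srebf1 -0.64 (adjusted p = 0.219), Srebf2 -0.53 (0.186) and Scap -0.34 (0.38). None of these 3 passed the test, and their groups overlapped.

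Of the 9 genes of fatty acid and lipid synthesis, 0 passed the test and 0 were without overlap between groups, with a median log2 fold change of -0.08. Fasn, fatty acid synthase, had 95.5, 77.5 and 117 CPM in SNA_Saline and 122, 194 and 110 CPM in Sham_Saline (log2 fold change -0.55, SE 0.25, adjusted p = 0.212 by edgeR). The sham value of 194 CPM came from replicate 2. Lpin1, a phosphatidate phosphatase, had -0.31 (adjusted p = 0.196), Acaca (acetyl-CoA carboxylase) -0.17 and the elongase Elovl6 -0.08. Acly, which supplies cytosolic acetyl-CoA, had 0.09, and the desaturases Scd1, Scd2, Fads1 and Fads2 had 0.19, 0.10, 0.17 and -0.23.

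With the replicate number, which is the sequencing lane, as a block, Insig1 had an adjusted p of 0.0515 and the other 2 calls held. The count of 3 fell to 1, Hsd17b7, without Sham_Saline replicate 2, SNA_Saline replicate 1 or SNA_Saline replicate 2, was 8 (7 higher, with Tm7sf2 lower) without Sham_Saline replicate 1, where 16.2% of all genes were called, and was 0 when only the 6 libraries compared entered the fit. Marker levels of other cells in these groups were 8827 to 9619 CPM in SNA_Saline and 7093 to 11288 CPM in Sham_Saline for 9 of 9 Schwann cell genes, and 1067 to 1098 and 905 to 1098 CPM for 5 of 5 satellite glia genes. For 7 of 9 adipocyte genes they were 49.9 to 69.7 and 52.4 to 94.8 CPM. No gene of these lists was called and none of those in the table was at 0 in any library. Sensory neuron genes (7 of 7) summed to 6126 to 7169 CPM in SNA_Saline and 6204 to 10364 CPM in Sham_Saline. In the same order, sums were 21.8 to 217 and 5.43 to 1085 CPM for skeletal muscle genes. They were 41.4 to 50.9 and 52 to 58.5 CPM for endothelial genes, and 729 to 839 and 622 to 767 CPM for fibroblast genes. No gene of these further lists was called either. The part of any of these cells in the values was not tested.

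**Figure D3:**
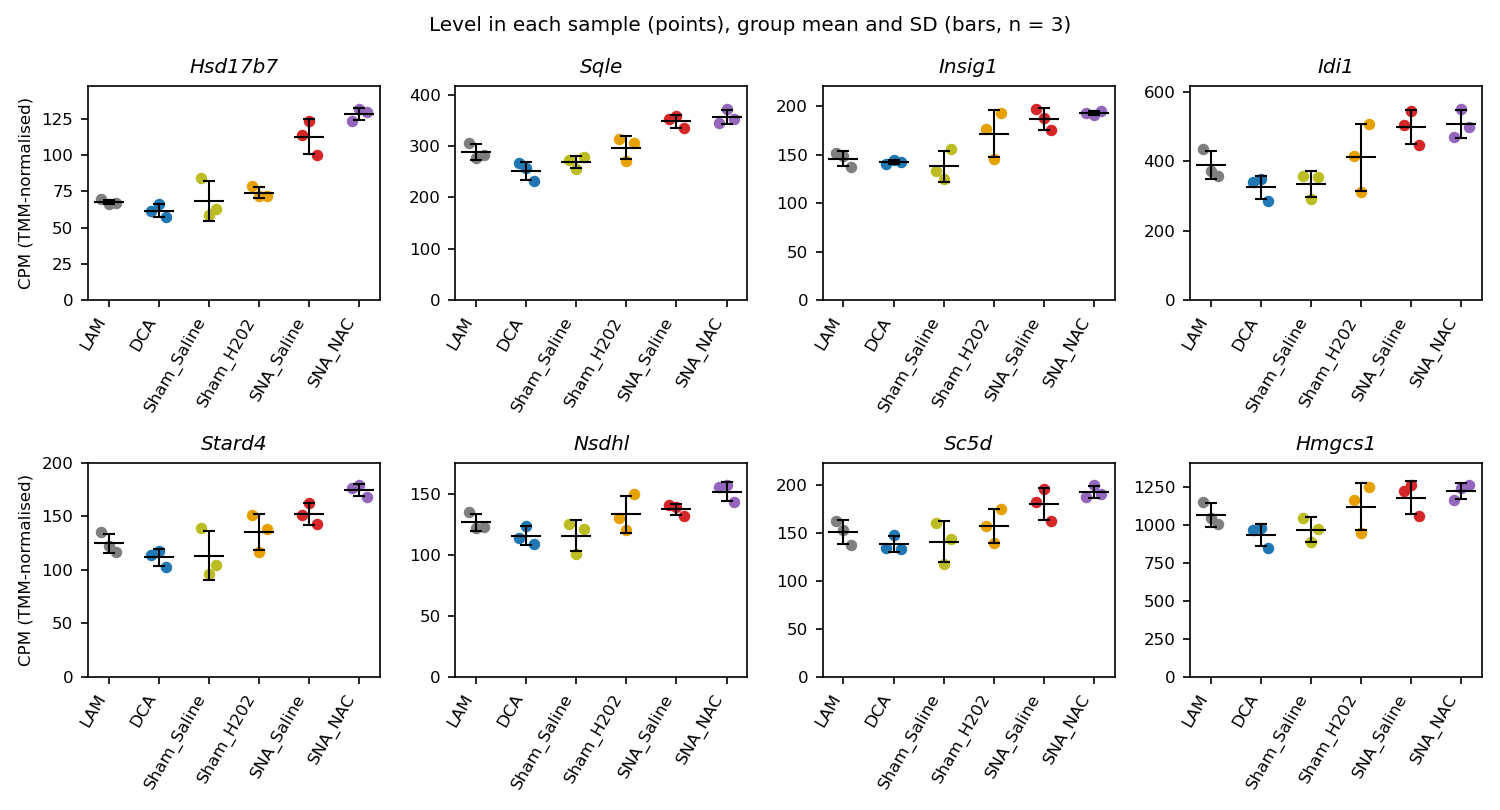
Level (CPM after TMM normalization, axis from 0) of 8 genes in each of the 18 samples, with group mean and SD (n = 3). Hsd17b7 lies between 99.9 and 132 CPM in the 6 samples with sciatic injury and between 57.3 and 84.4 CPM in the other 12, and Sqle between 334 and 372 CPM against 232 to 313 CPM.

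Injury of the dorsal columns cuts the central rather than the peripheral branches, and the second comparison set DCA against LAM. The test called 0 of the 33 genes (0 by DESeq2 also) and 0% of all genes, and 1 of the 33 had an unadjusted p under 0.05, beside 5.04% of all genes. The median log2 fold change was -0.02. The 4 genes with the smallest p were Sqle (-0.19, SE 0.09), Srebf1 (0.62, SE 0.30), Mvd (0.92, SE 0.45) and Mvk (0.83, SE 0.41), each with an adjusted p of 0.624. Sqle had 266, 257 and 232 CPM in DCA and 306, 277 and 282 CPM in LAM, so all 3 injured samples were lower. Mvd had 22.2, 14.8 and 42.5 CPM in DCA and 11.9, 16.2 and 14.1 CPM in LAM, with the highest value in DCA replicate 3.

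In all, 8 genes were lower in all DCA than in all LAM samples, beside 9.85% of all genes: Hmgcs1, Idi1, Sqle, Msmo1, Hsd17b7, Insig2, Scd1 and Scd2. Only Mvk was higher without overlap, beside 11.9% of all genes. Hsd17b7 had 61.2, 66.3 and 57.3 CPM in DCA and 69.5, 66.6 and 67.2 CPM in LAM, a log2 fold change of -0.14 (SE 0.12, adjusted p = 0.648 by edgeR). Insig1 had 140 to 144 CPM in DCA and 137 to 152 CPM in LAM, with a value of -0.04.

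**Figure D4:**
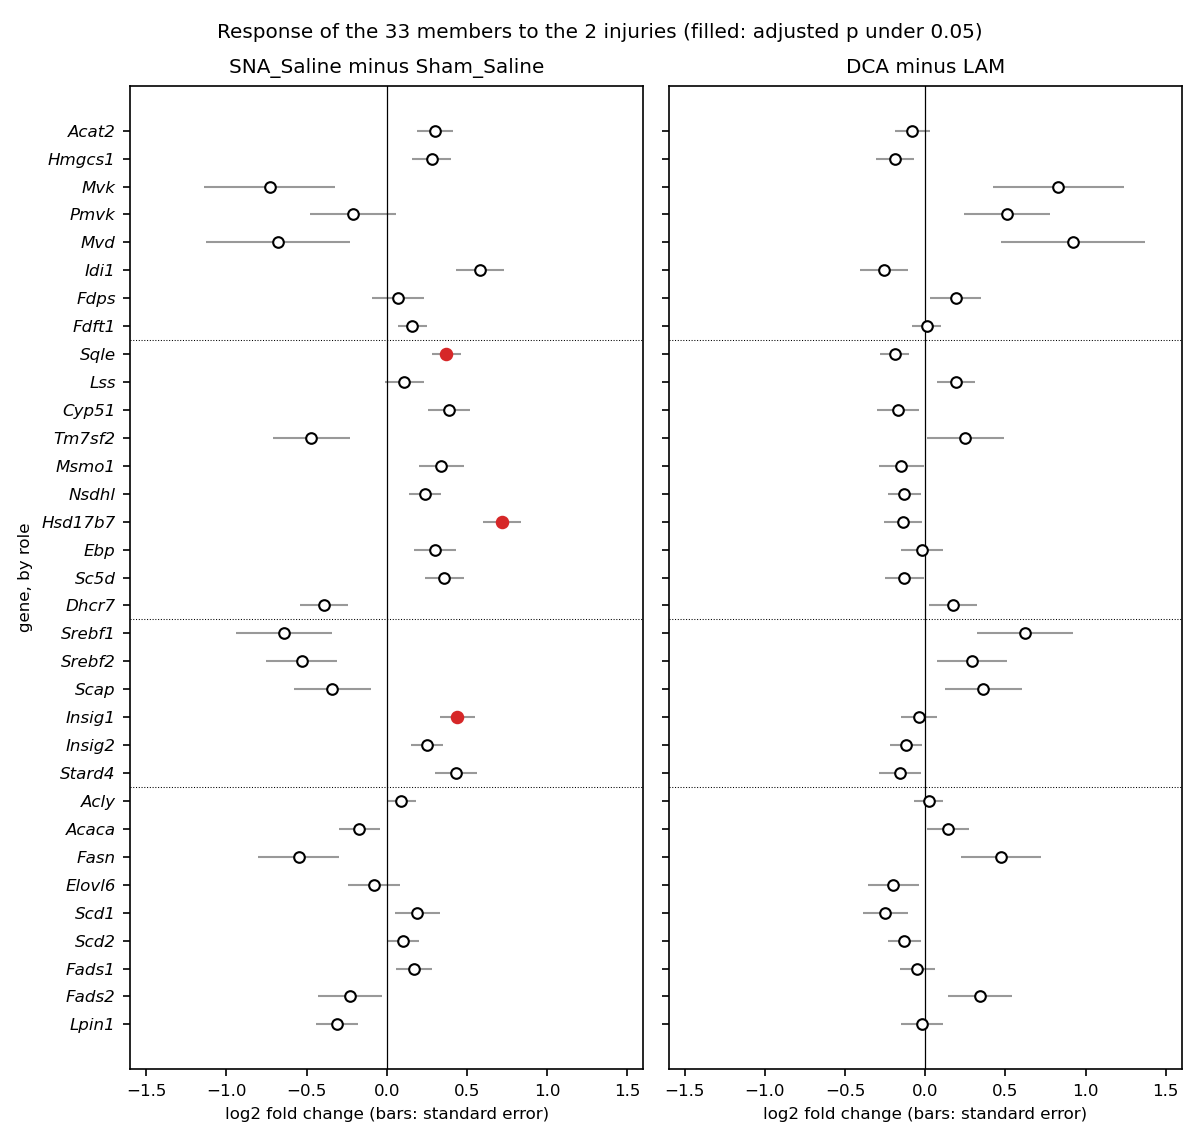
Log2 fold change of each of the 33 genes, by role, after sciatic injury (left, SNA_Saline minus Sham_Saline) and after dorsal column injury (right, DCA minus LAM), with standard errors; filled points have an adjusted p under 0.05. The 3 filled points are Sqle (0.37), Hsd17b7 (0.72) and Insig1 (0.44) on the left, and there are none on the right.

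The difference between the injury responses was tested in the same fit. It passed the threshold for 2 of the 33 genes, both with a higher response to sciatic injury, where 1.61% of all genes were called, 1.23% higher and 0.388% lower. Hsd17b7 had a difference of 0.85 on the log2 scale (SE 0.17, adjusted p = 0.0251 by edgeR) and Sqle of 0.57 (SE 0.12, adjusted p = 0.031). The next were Idi1 (0.84, SE 0.22, adjusted p = 0.0599) and Stard4 (0.59, SE 0.18, adjusted p = 0.0837), and Insig1 had 0.47 (adjusted p = 0.087). With the replicate block, 1 call held, Hsd17b7 (adjusted p = 0.034), and Sqle had an adjusted p of 0.0532. The count of 2 was 0 without any one of LAM replicates 1 or 3, DCA replicate 3, Sham_Saline replicate 2 or SNA_Saline replicates 1 or 2, 1 without LAM replicate 2 or DCA replicate 2, and 17 without Sham_Saline replicate 1, where 29.2% of all genes were called.

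N-acetyl-cysteine at the injured nerve was compared with saline at the injured nerve. In SNA_NAC against SNA_Saline 0 of the 33 genes were called (0 by DESeq2 also) and 0% of all genes, and 1 gene, Acaca, had an unadjusted p under 0.05, beside 2% of all genes. Acaca, which commits acetyl-CoA to fatty acid synthesis, had 146, 137 and 147 CPM with the antioxidant and 117, 116 and 115 CPM with saline, a log2 difference of 0.31 (SE 0.13, adjusted p = 1 by edgeR). The groups did not overlap, but Sham_Saline replicate 1 reached 170 CPM without injury. The next smallest p belonged to Hsd17b7 (0.19, SE 0.12), Dhcr7 (0.23, SE 0.15) and Stard4 (0.20, SE 0.13), each with an adjusted p of 1. In all, 4 genes were higher and 0 were lower without overlap, beside 9.24% and 5.63% of all genes, and they were Acaca, Stard4, Nsdhl and Lpin1.

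The injured, antioxidant-treated group was also set against the same sham group, so this comparison shares its 3 control samples with the first. Here 7 of the 33 genes rose and 0 fell, where 3.32% of all genes were called, 2.47% higher and 0.846% lower. Without overlap between groups, 13 were higher and 0 lower, beside 11.5% and 9.68% of all genes. Hsd17b7 had 124, 132 and 130 CPM in SNA_NAC (mean 129 ± 4.15, SD, n = 3) against the sham values above, a log2 fold change of 0.91 (adjusted p = 2.88e-04 by edgeR). Stard4 had 177, 179 and 168 CPM (0.63, adjusted p = 0.0104), above the 96.2 to 139 CPM of sham. Sqle had 345, 372 and 353 CPM (0.41, adjusted p = 0.0144) and Insig1 193, 191 and 195 CPM (0.48, adjusted p = 0.0169), both above every sham sample.

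The other 3 were nearer the threshold. Idi1 had 469, 550 and 499 CPM (0.60, adjusted p = 0.0408 by edgeR), Sc5d 188, 200 and 191 CPM (0.45, 0.0452) and Nsdhl 156, 157 and 143 CPM (0.39, 0.047). All 3 lay above the sham range, which for Sc5d was 118 to 161 CPM and for Nsdhl 101 to 125 CPM. By role, the called genes were 1 of 8 leading to squalene, 4 of 10 between squalene and cholesterol, 2 of 6 regulators and carriers and 0 of 9 of fatty acid and lipid synthesis. With the replicate block 4 calls held, and Idi1 (adjusted p = 0.064), Sc5d (0.0687) and Nsdhl (0.0689) did not. The count of 7 was 1 without Sham_Saline replicate 2 or SNA_NAC replicate 2, 2 without SNA_NAC replicate 3, 3 without Sham_Saline replicate 3 or SNA_NAC replicate 1, 14 without Sham_Saline replicate 1 (37.3% of all genes), and 0 when only the 6 libraries compared entered the fit.

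Side by side, the 6 samples with sciatic injury and the other 12 were separated without overlap by 2 of the 33 genes, Hsd17b7 and Sqle, both higher; this grouping was made after the values were seen, and 2.19% of all genes were higher and 0.553% lower in that way. Insig1 ranged from 175 to 197 CPM in the 6 and from 125 to 193 CPM in the 12, Idi1 from 447 to 550 against 286 to 506 CPM, and Stard4 from 143 to 179 against 96.2 to 151 CPM. The highest values among the 12 for Insig1 and Idi1 were both in Sham_H202 replicate 3, where these genes had 1214 and 3182 counts. That library had the fewest counts in all. It also had the lowest slope of expression on GC share, -0.351 on the log2 scale for 10 percentage points. The part of depth or GC share in these values was not tested.

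Hydrogen peroxide was applied to the nerve without injury, and Sham_H202 was compared with Sham_Saline. Again 0 of the 33 genes (0 by DESeq2 also) and 0% of all genes were called, and 6 had an unadjusted p under 0.05, beside 9.15% of all genes. No gene of the 33 had groups without overlap, beside 2.16% of all genes higher and 3.27% lower. The 4 with the smallest p were Insig1 (0.31, SE 0.11), Fasn (-0.61, SE 0.25), Mvk (-0.99, SE 0.42) and Mvd (-1.06, SE 0.46), each with an adjusted p of 0.449. Insig1 had 176, 145 and 193 CPM with peroxide and 133, 125 and 156 CPM with saline, and Hsd17b7 had 78.8, 71.7 and 72.1 CPM against 84.4, 58.4 and 62.6 CPM. Mvk, mevalonate kinase, had 20, 25.2 and 11.9 CPM with peroxide and 19.1, 63.5 and 33.2 CPM with saline, so that the overlap was wide and the difference lay in Sham_Saline replicates 2 and 3.

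The surgical controls were set against each other, Sham_Saline against LAM, because each injury was compared with its own control. Of the 33 genes, 0 were called, where 0.0699% of all genes were, and DESeq2 called 5. The 4 genes with the smallest p were Fasn (1.13, SE 0.25), Srebf1 (1.17, SE 0.30), Mvk (1.38, SE 0.42) and Fads2 (0.66, SE 0.20), each with an adjusted p of 0.104 by edgeR. Fasn had 122, 194 and 110 CPM in Sham_Saline and 60.2, 62.1 and 72.1 CPM in LAM, and Srebf1 had 22.2, 46.1 and 28 CPM against 11.3, 15.4 and 15.8 CPM. Both had every sham sample above every LAM sample, as did 10 of the 33 genes in all, and 2 were lower without overlap, beside 16.4% and 14.2% of all genes. Hsd17b7 had a log2 difference of 0.02 (SE 0.12) between the controls and Sqle of -0.10 (SE 0.09). Without Sham_Saline replicate 1 the count called was 12, where 31.8% of all genes were called.

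The responses of the 33 genes were ordered by the GC share of their transcripts. Over the 33 genes, Pearson's r between the GC share and the log2 fold change was -0.82 after sciatic injury and 0.86 after dorsal column injury, beside -0.53 and 0.60 over 15648 genes. The points share the same libraries, and the values are descriptions across genes. The 7 genes with a GC share of at least 55%, a limit set after the values were seen, were Mvk, Pmvk, Mvd, Srebf1, Srebf2, Scap and Fasn. After sciatic injury all 7 were negative (median -0.55), after dorsal column injury all 7 were positive (median 0.51), with peroxide all 7 were negative (median -0.55), and in Sham_Saline against LAM all 7 were positive (median 1.13). The sciatic, peroxide and control comparisons share the 3 Sham_Saline samples. None of the 7 was called by edgeR in any of these 4 comparisons over all samples, while in Sham_Saline against LAM DESeq2 called Mvk, Srebf1 and Fasn, and all 7 were called without Sham_Saline replicate 1, beside the 31.8% of all genes given above. Without Sham_Saline replicate 2 the median of the 7 was -0.16 after sciatic injury, with Pmvk at 0.04, -0.20 with peroxide and 0.80 between the controls. All 7 were highest in Sham_Saline replicate 2, which also had the highest summed level of sensory neuron markers, 10364 CPM, and of muscle markers; the part of that in these values was not tested.

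**Figure D5:**
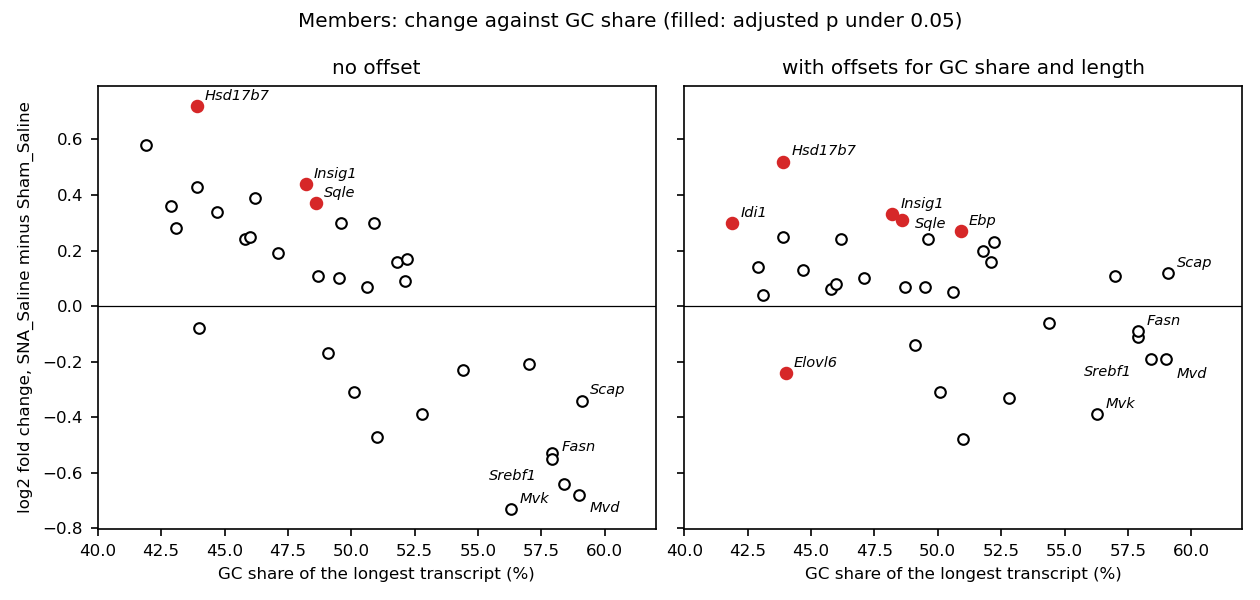
Log2 fold change of the 33 genes after sciatic injury against the GC share of the longest transcript, without (left) and with (right) offsets for GC share and length; filled points have an adjusted p under 0.05. The slope is flatter on the right (r of -0.43 against -0.82), and Hsd17b7, Sqle and Insig1 are filled in both panels.

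When the fit carried offsets for the GC share and the length of each transcript, r over the 33 genes after sciatic injury was -0.43, against -0.01 over all genes. Then 5 of the 33 rose and 1 fell, where 4.5% of all genes were called higher and 3.13% lower. Hsd17b7 had a log2 fold change of 0.52 (adjusted p = 1.48e-04 by edgeR), Insig1 0.33 (0.00718) and Sqle 0.31 (0.00583), each smaller than without offsets. Idi1 passed with 0.30 (adjusted p = 0.00514) against 0.58 without offsets. Ebp, with 0.27, lay at the threshold, with an adjusted p that rounds to 0.05 by edgeR and was 0.0705 with the replicate block added. The median of the 7 genes of high GC share was -0.11, with Pmvk at 0.11 and Scap at 0.12, and after dorsal column injury it was 0.18. Elovl6, which lengthens palmitate, fell by 0.24 (adjusted p = 0.0335). For the difference between injuries 3 genes passed, Hsd17b7 (0.48), Sqle (0.44) and Idi1 (0.35), where 2.86% of all genes were higher and 2.37% lower.

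Neighbouring parts of lipid metabolism were read from 7 further lists. After sciatic injury, 2.16% of all genes were called higher and 0.572% lower, and these shares stand beside the counts of each list. Of the 16 genes of sterol export and storage, 1 rose and 1 fell after sciatic injury. Abca1, which exports cholesterol to apolipoproteins, had 125, 123 and 93.2 CPM in SNA_Saline and 86.5, 46.1 and 49 CPM in Sham_Saline, a log2 fold change of 0.91 (SE 0.22, adjusted p = 0.0357 by edgeR). Abcg1, another sterol exporter, went the other way, with 20, 19.7 and 24.5 CPM against 28.5, 36.4 and 30 CPM (-0.56, SE 0.12, adjusted p = 0.0169). Neither pair of groups overlapped, beside 10.3% of all genes higher and 8.8% lower in that way. After dorsal column injury the values were -0.21 and 0.03.

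In the list of SREBP processing and sterol sensing, 2 of 15 genes rose after sciatic injury and 0 fell, beside 2.16% and 0.572% of all genes. Nfyb, a subunit of the factor that binds CCAAT, had 37.8, 42.5 and 42.1 CPM in SNA_Saline and 29.5, 24.8 and 30.2 CPM in Sham_Saline (0.53, SE 0.11, adjusted p = 0.00925 by edgeR). Erlin1, an endoplasmic reticulum protein that takes part in sterol-regulated degradation, had 45.3, 47.9 and 36.1 CPM against 31.4, 22.6 and 30.4 CPM (0.61, SE 0.15, adjusted p = 0.0301). Of 22 measured genes of further fatty acid synthesis and activation, 1 rose, the desaturase family member Fads3, with 114, 102 and 112 CPM against 65.1, 76.8 and 72.5 CPM (0.62, SE 0.10, adjusted p = 0.00175). Acacb, the carboxylase that makes malonyl-CoA at mitochondria, had -0.96 (adjusted p = 0.0868).

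Of 17 measured genes of fatty acid oxidation 1 rose, beside 2.16% of all genes. It was Slc25a20, the carnitine carrier of the mitochondrial membrane, with 40.1, 39.5 and 42.3 CPM against 26.7, 32.5 and 30.4 CPM (0.44, SE 0.10, adjusted p = 0.0183 by edgeR). Acadl had the next smallest p there (0.26, adjusted p = 0.125). In the lists of sterol uptake and remaining synthesis (9 genes), isoprenoid branches (12) and glycerolipid synthesis (13), 0 genes passed after sciatic injury. The smallest p in the first belonged to Lrp1 (-0.81, adjusted p = 0.133 by edgeR). The 2 with the smallest p were Nus1 (0.45, 0.139) and Fntb (-0.44, 0.162) in the second, and Agpat1 (-0.51, 0.242) and Dgat1 (0.29, 0.254) in the third. The median log2 fold changes of the 7 lists lay between -0.24 and 0.14, beside -0.031 over all genes. Of their genes, 0 were called after dorsal column injury, with the antioxidant against saline or with peroxide, beside 0% of all genes. In the difference between injuries 0 were called, beside 1.61% of all genes.

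SNA_NAC against Sham_Saline shares its controls with the sciatic comparison, and 2.47% of all genes were called higher and 0.846% lower in it. There Abca1 rose by 1.15 on the log2 scale (adjusted p = 0.00721 by edgeR) and Abcg1 fell by 0.54 (0.0185), and Nfyb (0.60, 0.00367) and Fads3 (0.58, 0.00279) rose. Acsl4, which activates long-chain fatty acids, had 0.81 (adjusted p = 0.0291). Erlin1 (0.52, adjusted p = 0.0601) and Slc25a20 (0.30, 0.0904) did not pass there. In the list of sterol uptake and remaining synthesis, 1 of 9 genes rose and 0 fell in this comparison.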

How the data were processed

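RNA sequencing of 18 samples was used, in 6 groups of 3. Per the labels' protocols, libraries came from a strand-specific mRNA kit and were read from one end, 6 to a lane on 3 lanes. The submitters' processing notes name TopHat2 2.0.12, Bowtie2 2.2.3, SAMtools 0.1.19, HTSeq 0.6.0, edgeR 3.8.6, limma 3.22.7, R 3.1.1, FastQC 0.10.1 and build mm10, with no role or order; the use of strand in counting is not given in the sources used here, so overlapping and antisense genes are uncertain. The deposited counts are whole reads per gene, not normalized, with a lowest mean of 10.1 per gene. The authors also deposited FPKM values, used for levels per length and for 2 alternatives.

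One model over the 18 samples, without a block, was fitted to the counts by edgeR 4.0.16 under R 4.3.3 (TMM normalization, filterByExpr, then glmQLFit and glmQLFTest). No gene was lost to the filter, adjusted p-values (Benjamini-Hochberg) covered all 15730, and genes were called under 0.05. Biological variation between replicates had a common coefficient of 17.4%. Standard errors are the absolute log2 fold change over the square root of F. Every listed gene may be named; per comparison all that passed are named, or the 4 with the smallest p, and of each further list those that passed and the 2 with the smallest p after sciatic injury. Further genes of the lists that the rule would name are not reported here. The 33 genes and the lists were chosen with earlier results of these data known. Alternatives were DESeq2 1.42.0 (Wald test, and its size factors in edgeR), no filter, at least 10 counts in every sample, only the groups compared, an adjusted p under 0.10, limma 3.58.1 on log2(FPKM + 1) and log2(FPKM + 0.1) for genes with a mean FPKM of at least 1, offsets for GC share and length (natural splines with 5 degrees of freedom, longest GENCODE M21 transcript, 15648 genes), the replicate block without and with offsets, and leaving out each sample.

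The labels pair the samples by lane, which equals the replicate number; same-numbered samples are different mice. The mean correlation of the deviations of same-numbered samples was -0.24 for the sciatic, 0.07 for the dorsal column, 0.09 for the antioxidant, -0.36 for SNA_NAC against Sham_Saline, 0.30 for the peroxide comparison and 0.31 for Sham_Saline against LAM (0.24, 0.42 and 0.27 by replicate number). Replicates are pools of different mice, and every pair of replicates differed by more than counting noise (chi-square per degree of freedom at least 4.11). The largest values were those of Sham_Saline replicate 1 against replicate 2 (113) and replicate 3 (51.6). Outside Sham_Saline the largest was 46.3, between Sham_H202 replicates 2 and 3. With 3 samples a group an exact permutation test cannot go below 0.1, so single genes were tested only in the fits across all genes. Methods were tested on simulated data. Gene positions are from GENCODE M21 (GRCm38), and promoter sequences from RefSeq (GRCm38.p6), matched by symbol. Figures were drawn with matplotlib 3.10.9.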

Additional observations from a re-analysis of the deposited data

Results flagged for a closer look

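The responses to the 2 injuries differed for 2 of the 33 genes by the test of the difference itself (edgeR's quasi-likelihood test, adjusted over all genes). For Sqle the sciatic response exceeded the dorsal column response by 0.57 on the log2 scale (adjusted p = 0.031), and for Hsd17b7 by 0.85 (adjusted p = 0.0251). Both genes were higher in all 3 sciatic and lower in all 3 dorsal column samples than in their own controls. With only the groups of the comparison in the fit, neither of these 2 was called. Groups of 3 samples were too small for a test of single outlying samples, and none was run. Fits with each sample left out are given with the results. After sciatic injury and in the difference between injuries, the share of all genes called was highest without Sham_Saline replicate 1.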

How the results depend on the processing

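No called gene among the 33 changed direction under any alternative run (17 for each comparison, 23 for the difference between injuries). Genes that were not called did: 5 of the 33 after sciatic injury, 11 after dorsal column injury, 3 in the difference between injuries, 15 with the antioxidant against saline, 6 against sham, 10 with peroxide and 13 between the controls. After sciatic injury these were Pmvk (-0.21, 0.11 with offsets, 0.04 without Sham_Saline replicate 2), Scap (-0.34, 0.12 with offsets) and, without Sham_Saline replicate 1, Acaca (-0.17 to 0.06), Elovl6 (-0.08 to 0.10) and Fdps (0.07 to -0.11). After sciatic injury the count of 3 became 5 at an adjusted p under 0.10, 5 with DESeq2, 6 with offsets for GC share and length, 5 with offsets and the replicate block, and 0 with only the groups compared, and it ran from 1 to 8 with single samples left out. With the replicate block it was 2. For the difference between injuries the count of 2 became 11 at an adjusted p under 0.10, 11 with DESeq2 (8 higher and 3 lower) and 1 with the replicate block (Hsd17b7). With only the groups compared it was 1, which was neither Hsd17b7 nor Sqle, and it ran from 0 to 17 with single samples left out. For SNA_NAC against Sham_Saline the count of 7 became 4 with the replicate block and 0 with only the groups compared, and ran from 1 to 14. For Sham_Saline against LAM the count of 0 became 5 with DESeq2 and ran from 0 to 12. The counts of 0 after dorsal column injury, with the antioxidant against saline and with peroxide were 0 in every alternative run. Without offsets the block changed no other call than those given with the results. With offsets, Ebp lost its call after sciatic injury when the block was added (adjusted p = 0.0705 by edgeR). The fit on only the groups compared holds 6 samples (12 for the difference), and the cause of the other changes was not tested. Leaving out no gene by a filter gave the same fit, and an adjusted p under 0.10 was read from the main fit. Neither of these alternatives could change a direction or lose a call, though both are counted among the runs. Of 17 alternatives, Hsd17b7 lost its call after sciatic injury in 1, Sqle in 4 and Insig1 in 5. Depth limits the low genes: the lowest count among the 33 was 58, and Sham_H202 replicate 3 had 6472476 counts in all.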
